A study of Mus musculus with 2 samples.

Results

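The 36 genes described here are amino acid transporters and genes of the ATF4 response, measured in tumour-infiltrating monocytic myeloid-derived suppressor cells (M-MDSCs) of mice on a normal-salt diet (NSD) or a high-salt diet (HSD). They were chosen by name, 18 transporters and 18 transcription factors, stress effectors and enzymes, through the RefSeq transcript that a probe of the array carries. All 36 had a probe, of 20653 genes that could be named on the array. Female BABL/c mice received 1000000 cells of the 4T1 mammary carcinoma line and were then fed for 16 days, either chow holding 0.4% NaCl beside tap water (NSD) or chow holding 4% NaCl beside water with 1% NaCl (HSD). The age of the mice and the number behind each pool are not given in the sample labels. Magnetic beads were used to isolate the cells from the tumours. Equal numbers from the mice of a diet were pooled, and the RNA was hybridised to Agilent Mouse GE v2 arrays in a single colour, 1 array per diet. Both diets therefore share the strain, the sex, the tumour and the isolation, and each gene has 1 pooled value per diet. No spread between mice can be computed, no test of the diet was possible and no p-value is given. In such pooled RNA, fewer cells of a type and less RNA per cell cannot be told apart.

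ATF4 is a transcription factor whose mRNA is translated preferentially when the initiation factor eIF2 is phosphorylated, for instance when amino acids run short, when unfolded proteins accumulate or when haem is lacking. It pairs with C/EBP family proteins and binds composite elements in the promoters of its targets, which import amino acids, synthesise asparagine, serine and glycine, charge tRNAs, or feed back on the response. Myeloid cells draw on these transporters for arginine, cystine, glutamine and leucine, and the uptake of cystine and arginine is a known part of how suppressor cells act on T cells. Because ATF4 itself is controlled at translation, arrays report on its mRNA and on that of its targets, and not on its protein.

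The promoters of the members were searched for TGATGNAA, the core of the C/EBP-ATF response element, on both strands from 250 bases before to 50 bases after the transcription start. Sequences are those of RefSeq on GRCm38.p6, in which 32 of the 36 members had an entry. The element was present in 9 of these 32 genes, against 4.51% of all genes in the table. Its stricter form TGATGCAA was found in 7 of the 32, against 1.03% of all genes. Several members are known as ATF4 targets because they carry such a site, so this share is no independent result. The stretches below are those of the 6 genes that both held the element and differed by at least 1.5-fold between the diets, with the element in capitals, reading TTGCATCA where TGATGCAA lies on the other strand.
Slc7a11 (chr3:50443613-50443719, minus strand): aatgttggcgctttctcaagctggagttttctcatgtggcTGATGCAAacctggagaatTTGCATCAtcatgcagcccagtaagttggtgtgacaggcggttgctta
Nupr1 (chr7:126625533-126625620, minus strand): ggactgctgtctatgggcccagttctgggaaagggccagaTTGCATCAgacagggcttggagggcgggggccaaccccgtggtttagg
Atf3 (chr1:191183396-191183483, minus strand): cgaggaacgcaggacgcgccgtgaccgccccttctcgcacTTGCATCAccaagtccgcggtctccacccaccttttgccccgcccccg
Slc1a4 (chr11:20332694-20332757, minus strand): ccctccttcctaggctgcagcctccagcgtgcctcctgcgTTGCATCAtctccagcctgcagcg
Slc7a7 (chr14:54417925-54418125, minus strand): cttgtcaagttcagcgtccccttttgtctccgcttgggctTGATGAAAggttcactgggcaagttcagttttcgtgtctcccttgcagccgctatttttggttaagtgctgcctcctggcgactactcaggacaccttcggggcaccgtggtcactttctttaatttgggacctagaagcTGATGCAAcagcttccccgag
Vldlr (chr19:27216780-27216867, plus strand): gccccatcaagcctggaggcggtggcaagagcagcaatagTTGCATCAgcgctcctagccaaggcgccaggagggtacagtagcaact
In Slc7a11 there were 2 copies of TGATGCAA, on opposite strands, which begin 66 and 47 bases before the start. Nupr1 and Atf3 each held 1 copy, in both cases 110 bases before the start. The element lay 200 bases before the start in Vldlr, and in Slc1a4 and Slc7a7 it reached across the start itself. Slc7a7 held a second copy, reading TGATGAAA, 141 bases before the start. Of the 6 genes, Slc7a11 and Nupr1 were higher in the HSD group and the other 4 were lower, so that the element was found beside differences in both directions. Among those 4, the 2 probes of Vldlr disagreed in sign. Chac1, Trib3 and Asns held it too and differed by less than 1.5-fold. A match of letters is not a measured binding site.

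Members were compared as log2 signals after the 75th percentile of each array had been subtracted, and every log2 fold change was taken as HSD minus NSD. Signals printed below are processed intensities before that scaling, whose 75th percentile was 252 units for NSD and 233 for HSD. The error given after a signal is the scanner software's own estimate for the spot. It covers the measurement of a spot and not the variation between mice or preparations, and it gave log2 fold changes an error between 0.065 and 0.23. The probe used for each member was well above background on both arrays. Under HSD, 6 of the 36 members passed 1.5-fold upwards and 7 downwards, which makes 13 (36.1%). The shares over the 16312 genes with a usable probe were 9.86% upwards, 10.3% downwards and 20.2% in either direction. Cyclic loess scaling turned the shares of all genes into 7.63% and 12.2%, and left the members at 6 and 7. The median log2 fold change was 0.038 over the members and 0.045 over all genes. The members thus lay on both sides of 0, with 19 above and 17 below, and did not move as one group. The transporters held 3 higher and 4 lower genes, and the ATF4 response genes and enzymes 3 and 3.

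**Figure D1:**
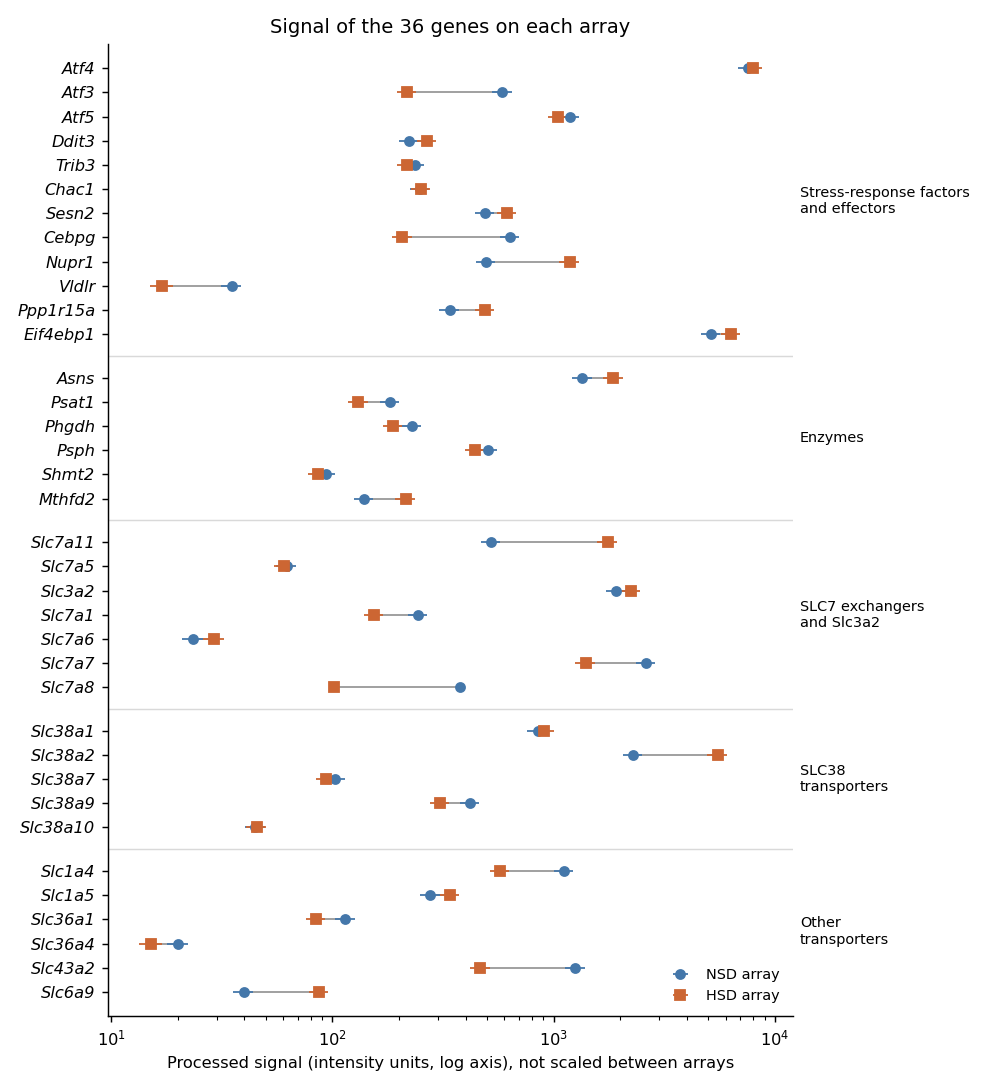
Processed signal of each of the 36 genes on the NSD array (blue circles) and the HSD array (orange squares), in intensity units on a log axis, with the scanner software's error as bars. The widest gaps are those of Slc7a8, Slc7a11 and Cebpg, while Trib3, Chac1 and Slc38a10 have nearly the same signal on both arrays.

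**Figure D2:**
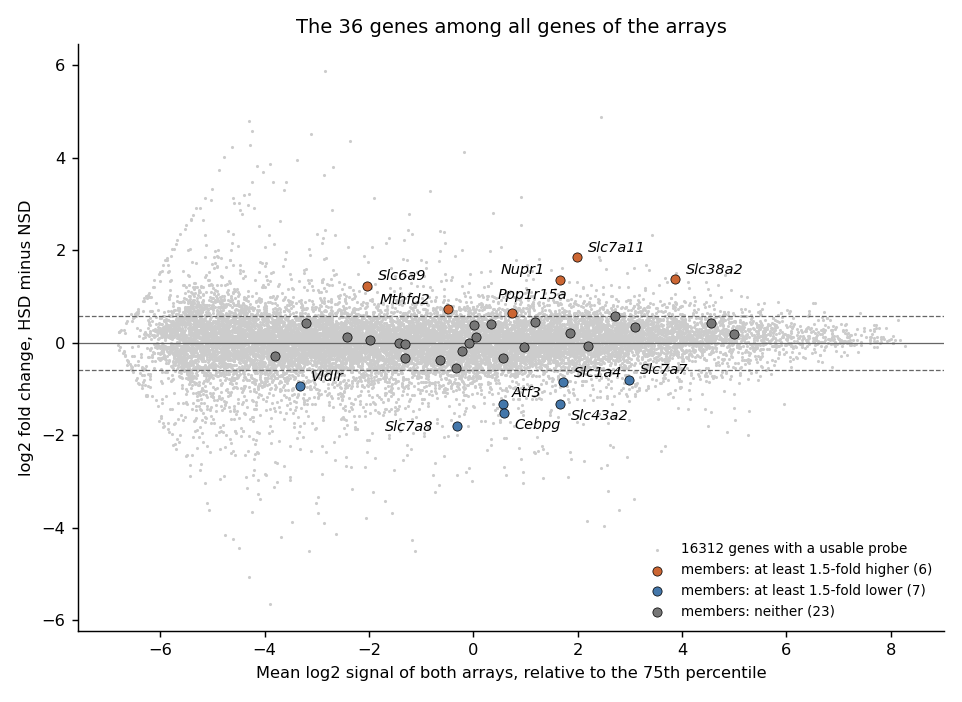
Log2 fold change, HSD minus NSD, against the mean log2 signal relative to the 75th percentile, for 16312 genes (grey) and the 36 members (coloured by direction), with dashed lines at 1.5-fold. The 6 higher and 7 lower members are named, and the grey points spread widest at the left, where signals are dim.

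The cystine/glutamate exchanger Slc7a11, the light chain of system xc- that brings in cystine for glutathione, had the largest upward difference of the 36. Its signal was 523 ± 52.3 under NSD and 1754 ± 175 under HSD, a 3.63-fold difference (log2 fold change 1.86), higher than 99.4% of all genes. Its heavy chain partner Slc3a2 (CD98), which carries several SLC7 light chains to the membrane, had signals of 1909 ± 191 and 2239 ± 224. That is a log2 fold change of 0.34, so the light chain differed far more than the chain that escorts it. Slc7a5 (LAT1), the leucine transporter and another partner of Slc3a2, stood at 62.0 ± 6.29 and 60.2 ± 6.11 (log2 fold change 0.072), and its other probe gave 0.079. The signals of Slc7a5 were thus alike on both arrays.

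Slc7a8 (LAT2), a neutral amino acid exchanger, was the lowest of the members relative to NSD and the only one printed in 10 spots per array. On the NSD array the spots ran from 332 to 417 with a median of 387, and on the HSD array from 91.5 to 116 with a median of 100. The arrays did not overlap in any of these spots, whose SD on the log2 scale was 0.10 (NSD) and 0.092 (HSD). The spots repeat the measurement of 1 pooled RNA per diet, and their SD holds no variation between mice. The probe's mean log2 fold change was −1.79, a 3.45-fold lower signal in the HSD group. Slc7a7 (y+LAT1), which exports cationic amino acids in exchange for neutral ones and is prominent in macrophages, gave 2612 ± 261 under NSD and 1395 ± 140 under HSD (log2 fold change −0.79). Its relative Slc7a6 (y+LAT2) was dim, with 23.5 ± 2.57 and 29.1 ± 3.07 (log2 fold change 0.42). Slc7a1 (CAT1), the main carrier of arginine into many cells, had 244 ± 24.4 and 154 ± 15.4. Its log2 fold change of −0.55 fell just short of 1.5-fold. Within the family, then, the cystine carrier was higher, both LAT2 and y+LAT1 were lower, and the others differed by less than 1.5-fold.

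In the SLC38 family of sodium-coupled neutral amino acid transporters, Slc38a2 (SNAT2) stood alone. SNAT2 concentrates glutamine and alanine, and its gene is known to respond both to amino acid shortage and to hypertonicity. Its signal was 2293 ± 229 under NSD and 5519 ± 552 under HSD, a 2.61-fold difference (log2 fold change 1.38). Slc38a1 (SNAT1), its close relative, had 846 ± 84.6 and 910 ± 91.0 (log2 fold change 0.22). The 2 other probes of Slc38a1 gave 0.081 and, where the signals were only 9.79 and 15.9, 0.81. Slc38a9, the arginine sensor of the lysosome that signals to mTORC1, had a log2 fold change of −0.34, and its 3 probes lay between −0.49 and −0.15. Slc38a10 (44.8 and 45.4, log2 fold change 0.13) and the lysosomal Slc38a7 (103 and 93.7, log2 fold change −0.025) were nearly level.

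Among the remaining transporters, Slc6a9 (GLYT1), a glycine transporter, was higher and 2 carriers of neutral amino acids were lower. Slc6a9 had signals of 39.7 ± 4.09 and 86.7 ± 8.72 in the NSD and HSD groups, a log2 fold change of 1.24. Its second probe, with signals of 35.4 and 91.4, gave 1.48, so both probes showed a difference of more than 2-fold. With normexp, another background correction, the first probe gave 0.76. Slc43a2 (LAT4), which lets large neutral amino acids leave the cell, had 1256 ± 126 and 467 ± 46.7 (log2 fold change −1.31). Slc1a4 (ASCT1), an exchanger of alanine, serine and cysteine, had 1111 ± 111 and 571 ± 57.1 (log2 fold change −0.85). The glutamine carrier Slc1a5 (ASCT2), which belongs to the same family, went the other way by less than 1.5-fold, with 277 ± 27.8 and 340 ± 34.0 (log2 fold change 0.41) and 0.25 on its other probe. Slc36a1, a proton-coupled carrier of small amino acids, and its relative Slc36a4 had log2 fold changes of −0.33 and −0.28. The 2 probes of Slc36a1 disagreed in sign, the other one giving 0.070.

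**Figure D3:**
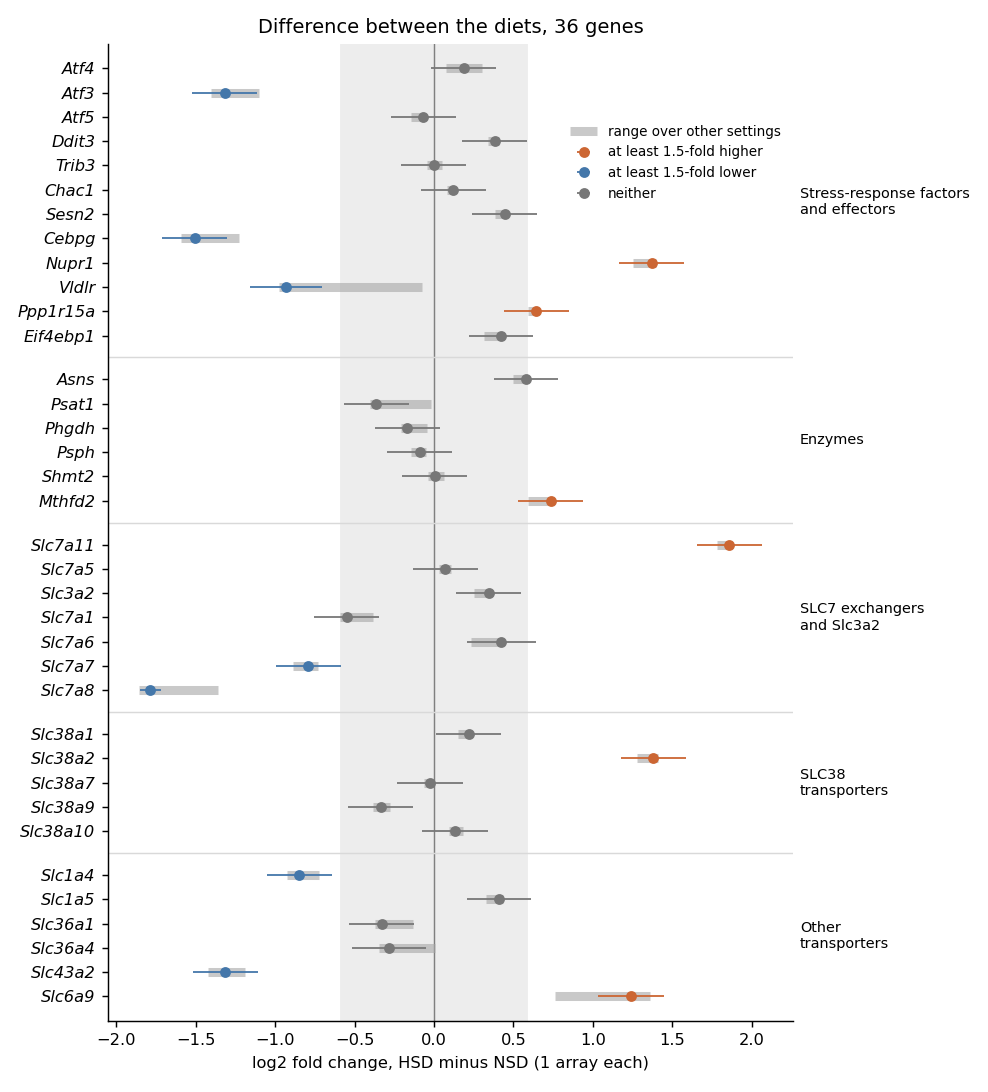
Log2 fold change, HSD minus NSD, of each member, with the scanner software's error as thin bars and the range over the other processing settings as thick grey bars. Differences inside the grey band are under 1.5-fold, and of the 13 genes outside it only Vldlr enters it under some settings, while Asns and Slc7a1 reach past its edge.

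The transcription factors of the response did not share a direction. Atf4 itself had signals of 7561 ± 756 under NSD and 7959 ± 796 under HSD (log2 fold change 0.19), and its other probe gave 0.41. Atf3, which ATF4 induces and which represses many stress and inflammatory genes, had 587 ± 58.7 and 217 ± 21.8, a 2.49-fold lower signal in the HSD group (log2 fold change −1.32). Cebpg, which encodes a C/EBP partner of ATF4, had 637 ± 63.7 and 207 ± 20.7 and was 2.84-fold lower (log2 fold change −1.51). Both of these factors were lower beside an Atf4 mRNA that differed little. Atf5, a relative of ATF4 that is itself controlled at translation, had a log2 fold change of −0.067 (1188 ± 119 and 1048 ± 105). Ddit3 (CHOP), the factor linked to cell death under lasting stress, had 223 ± 22.3 and 269 ± 26.9 (log2 fold change 0.38).

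Effectors downstream of these factors were mostly level or a little higher. Nupr1, a small stress-induced chromatin protein, had the largest difference, with 494 ± 49.4 under NSD and 1181 ± 118 under HSD, 2.59-fold higher (log2 fold change 1.37). It was also the only 1 of the 32 genes with a promoter entry to hold the TonE consensus, the element of the osmotic factor NFAT5, which 5.74% of all genes in the table hold. Slc38a2 held no TonE match within the same window. Ppp1r15a (GADD34), the phosphatase subunit that reverses eIF2 phosphorylation, had 339 ± 33.9 and 489 ± 48.9 (log2 fold change 0.64). Sesn2, a leucine sensor that restrains mTORC1, had a log2 fold change of 0.45, and Eif4ebp1, which holds back cap-dependent translation, of 0.42. Trib3 (236 and 218, log2 fold change −0.00056) and Chac1 (249 and 251, log2 fold change 0.12), which inhibit ATF4 and degrade glutathione respectively and are among its most responsive targets, were level. Vldlr, a lipoprotein receptor, had signals of only 34.98 ± 3.66 and 16.9 ± 2.00 (log2 fold change −0.93). Its other probe was well above background on the HSD array alone and gave a bound of at least 1.73-fold higher, so the direction of Vldlr is not settled by its probes. With the normexp background correction its log2 fold change was −0.25.

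Of the enzymes, Mthfd2 alone passed 1.5-fold. This mitochondrial folate enzyme gave 139 ± 14.0 under NSD and 214 ± 21.4 under HSD (log2 fold change 0.73). Asns, the asparagine synthetase, came just short, with 1351 ± 135 and 1865 ± 186, a 1.49-fold difference (log2 fold change 0.58). The serine pathway enzymes Phgdh, Psat1 and Psph had log2 fold changes of −0.17, −0.36 and −0.090. The 2 probes of Psat1 disagreed in sign (−0.36 and 0.33), while those of Phgdh and Psph did not. Shmt2, which turns serine into glycine upstream of Mthfd2, was level at 93.3 ± 9.38 and 86.4 ± 8.69 (log2 fold change 0.0035). None of these 4 enzymes passed 1.5-fold in either direction on the probe used.

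Where members could be measured more than once, the repeats mostly kept the sign. Of the 12 members with several probes, 9 had the same sign on all of them, and Psat1, Slc36a1 and Vldlr did not. Apart from Slc6a9 and Vldlr, all members that passed 1.5-fold had a single probe, and apart from Slc7a8 that probe was printed in a single spot. Over the probes printed in several spots, the median SD between spots of a probe on the log2 scale was 0.19 below 30 units, 0.10 between 30 and 100 units, and 0.060 above 1000 units.

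**Figure D4:**
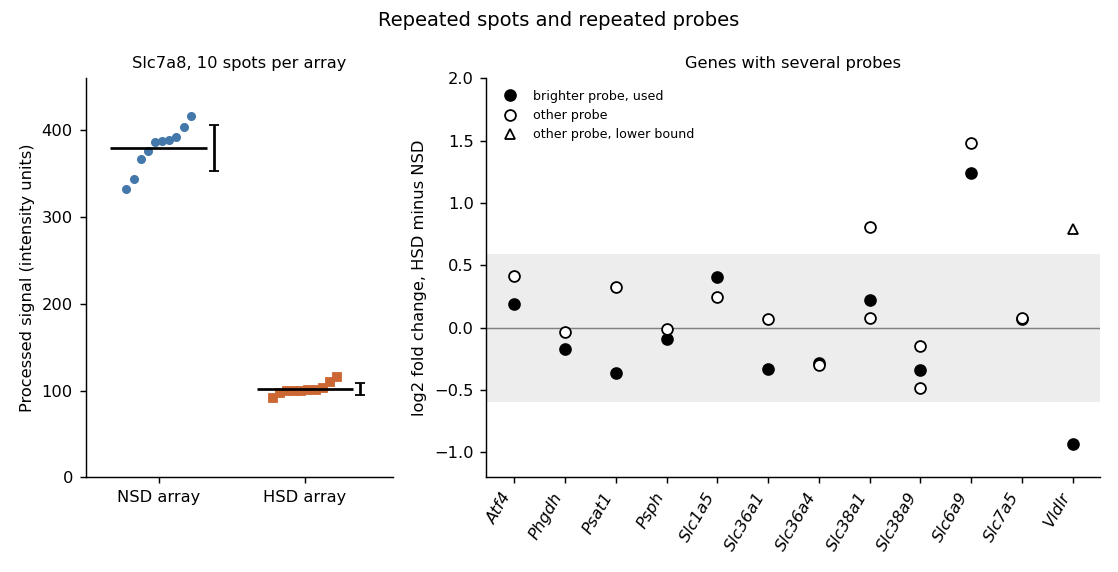
Left, processed signal of the 10 spots of Slc7a8 on each array, ordered by signal, with the mean (line) and SD (bar) over spots. Right, log2 fold change of every probe of the 12 members with several probes, in which only the probes of Psat1, Slc36a1 and Vldlr lie on both sides of 0.

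Further genes of the pathway, in lists that do not overlap the members, were counted in the same way. The shares of all genes to set beside these counts are 9.86% upwards and 10.3% downwards. Among 36 further amino acid transporters, 26 had a usable probe, of which 1 passed 1.5-fold upwards and 7 downwards (median log2 fold change −0.086). The higher one was Slc16a10 (TAT1), a carrier of aromatic amino acids, with signals of 928 and 1993 (log2 fold change 1.22). The most negative values among those measured on both arrays were those of Slc6a20a (−1.57), Slc3a1 (−0.95) and Slc7a4 (−0.75). With the normexp background correction only Slc6a20a of the 7 still passed, at −0.77. That correction adds an offset of 50 units, so a probe with signals far below 50 could not pass there. Slc3a1 (17.8 and 8.54) and Slc7a4 (14.2 and 7.77) were such probes, and for them normexp is no check. Of 29 usable further targets of ATF4, 3 were higher and 1 lower (median 0.088). Ddit4 (REDD1), an inhibitor of mTORC1, had 906 and 1458 (log2 fold change 0.80), and Crebrf and Klhl24 had 0.73 and 0.68. Cth, which makes cysteine from cystathionine, was the lower one at −0.60, with signals of 17.2 and 10.5.

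None of the 17 kinases and initiation factors of the integrated stress response was at least 1.5-fold higher and 2 were lower. Over all genes the shares were 9.86% and 10.3%. Eif2ak2 (PKR), which is also an interferon-induced gene, had 314 and 145 (log2 fold change −0.99), and Eif2b3, a subunit of the exchange factor that eIF2 depends on, had −0.65. The other eIF2 kinases, Eif2ak1 (HRI), Eif2ak3 (PERK) and Eif2ak4 (GCN2), had log2 fold changes of −0.011, −0.026 and 0.11. The aminoacyl-tRNA synthetases, many of which ATF4 induces, were nearly level, with a median of −0.022 over 20 genes, and Wars, also induced by interferon-γ, was the one past 1.5-fold (−0.62). Among further enzymes of serine, glycine and folate metabolism, Mthfd2l was lower (−1.11). Among 30 usable genes of amino acid sensing upstream of mTORC1, Nprl2 was higher (0.80), and Nprl3 and Rptor were lower (−0.87 and −0.86). Nprl2 and Nprl3 encode subunits of the same complex, GATOR1, and had opposite signs. With normexp, Eif2b3 (−0.17), Wars (−0.54) and Nprl3 (−0.48) no longer passed 1.5-fold, nor did Crebrf (0.44), Cth (0.019) and Mthfd2l (−0.28). The signals of Eif2b3, Cth and Mthfd2l lay below the normexp offset of 50 units on both arrays.

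**Figure D5:**
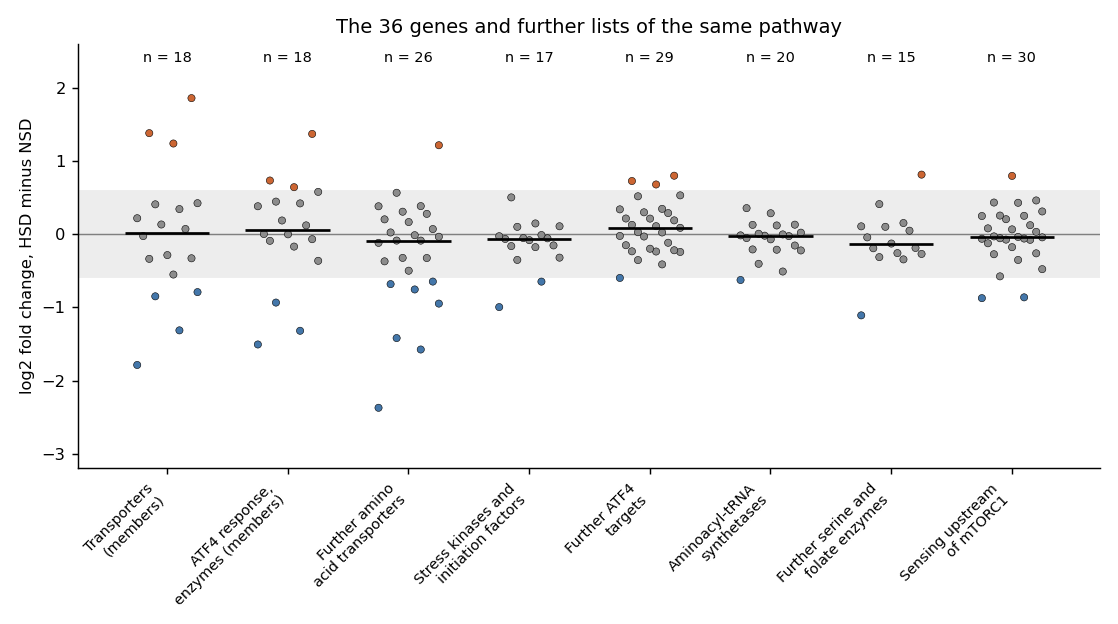
Log2 fold change, HSD minus NSD, of the usable genes of each list (1 point per gene, orange and blue past 1.5-fold, grey band under 1.5-fold), with the median as a black line and the number of genes above. The medians of all lists lie within 0.13 of 0, and the members spread farthest on both sides apart from the further transporters, whose lowest point is a bound.

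The arrays were checked against markers of the labelled cell type and of others that a tumour isolate can hold. All 9 monocyte genes with a probe were well above background, with a median log2 fold change of 0.018 and summed signals of 118942 and 108502. Itgam, Ly6c1 and Csf1r had log2 fold changes of 0.090, 0.018 and −0.37. Past 1.5-fold were Cd14 (0.82), Ccr2 (−0.78) and Fcgr1, an Fc receptor with signals of 305 and 21.9 (−3.68, and −2.10 with normexp). All 10 neutrophil genes with a probe were well above background too, among them the granule gene Camp with signals of 61817 and 59920. Ly6g, whose protein marks granulocytic suppressor cells in the study, had no probe that could be named. The neutrophil list had a median log2 fold change of 0.074 and 1 gene past 1.5-fold, Mpo (−0.92). Its summed signals, 343619 and 334056, were larger than those of the monocyte list on both arrays. How much of the members' signal came from neutrophils was not tested. Of 5 macrophage genes 3 passed 1.5-fold downwards, with signals of 134 and 5.49 for Mrc1 and of 95.9 and 15.4 for Mertk. C1qa, also counted, was a bound at signals of 12.2 and 4.01, and had −0.074 with normexp. C1qb went the other way, with 50.4 and 58.4 (0.33). Adgre1, with 6723 and 4252 (−0.55), made up most of the list's summed signal of 7016 and 4336. All 4 platelet genes were lower, 3 of them past 1.5-fold, with summed signals of 1405 and 269. Pf4, with 1332 and 245, made up most of that sum and had −2.06 with normexp. The other genes had −0.52 (Ppbp), −0.054 (Itga2b) and 0.039 (Gp9) with normexp, none past 1.5-fold. Their signals lay below the normexp offset of 50 units on both arrays. The macrophage and platelet genes past 1.5-fold, Fcgr1 and Ccr2 differed in the same direction as the 7 lower members, and their part in those values was not tested. Of 6 genes of carcinoma cells, which rely on many of the same transporters, 3 passed 1.5-fold upwards at signals of up to 25.0, Cdh1 had 45.01 and 30.8, and the summed signal was 114 and 120. With normexp, Epcam, Krt8 and Krt18, the 3 higher ones, had 0.23, 0.17 and 0.34, at signals below its offset of 50 units. Their part in the higher members was not tested. The remaining lists had medians of 0.062 (dendritic), 0.47 (B), −0.26 (T and NK), 0.18 (endothelial), −0.68 (fibroblast) and −0.057 (erythroid). The brightest genes of the dendritic, B and erythroid lists were Siglech (13705 and 13214), Ms4a1 (1727 and 1968) and Hba-a1 (10273 and 10843).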

How the data were processed

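RNA of M-MDSCs isolated from 4T1 tumours was measured on 1 single-colour Agilent array per diet. The authors deposited scanner files from Feature Extraction 11.0.1.1, whose processed signal is an intensity already freed of background and of spatial trends but not yet scaled across arrays. They also deposited a table of log2 values made with GeneSpring, by a method that is not named. Its columns have the same mean, 5.58, and the same median, 4.61, and it was used as an alternative.

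Control spots and spots flagged as outliers (162 on the NSD and 179 on the HSD array, none saturated) were left out, spots of a probe were averaged on the log2 scale, and each array's 75th percentile over 39413 probes was subtracted. The software called 71.9% and 72.4% of the probes well above background. Transcript identifiers were matched without versions to RefSeq of GRCm38.p6, which named 27223 probes (69.1%), and the probe with the highest mean log2 signal stood for its gene. A gene was counted at a fold change of at least 1.5. Where 1 array was not well above background, the value was a bound, computed against the probe's own signal there or that array's lowest signal well above background, whichever was higher. With 1 array per diet, precision is limited by the number of arrays.

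The members, the further lists, the markers and the motifs were chosen with earlier results of these data known. The genes named are all members and, of each further list, up to 3 with the largest rise and up to 3 with the largest fall past 1.5-fold, where neither value was a bound. A gene that this rule names is not reported here. The eIF2 kinases, the marker genes given as examples and the TonE element's genes were named beside these. Of the listed genes, Pycr1 and 5 markers (Ly6g, Ly6c2, Cd68, Ighm and Hbb-b1) had no probe that could be named. The computation of the calls was tried on simulated arrays, with 2-fold changes put into probes well above background on both arrays. Those changes were larger than the threshold, so the trial cannot tell how reliable calls near 1.5-fold are. Alternatives were normexp background correction (limma, offset 50, on the median spot signal), quantile normalization, cyclic loess, scaling on the median or on the 75th percentile of detected probes, the deposited log2 values, flagged spots kept, the median over a gene's probes, a stricter filter that needs both arrays well above background, no filter, and a 2-fold threshold. The tools were R 4.3.3 (limma 3.58.1) and Python 3.11.15 (pandas 2.3.3, matplotlib 3.10.9).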

Additional observations from a re-analysis of the deposited data

How the results depend on the processing

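All 13 members past 1.5-fold kept their sign under the other settings, and 12 of them stayed past 1.5-fold in each of the 10 settings that keep this threshold. The exception was Vldlr, whose log2 fold change was −0.25 with the normexp correction and −0.072 as the median over its probes. Not all of the 10 settings could have changed these calls. The stricter filter and no filter left every member's value as it was, since the chosen probes already met the stricter one. Of the 13, only Slc6a9 and Vldlr had several probes, so the median over probes could change no other. Staying past 1.5-fold in such settings therefore says little about a call. Mthfd2 and Ppp1r15a came closest to the threshold of 0.585, each with 0.59 as its lowest value. That margin is smaller than the scanner software's error of 0.20 for either gene. With normexp and with median scaling Asns was past 1.5-fold too, which gave 7 higher members, and with the 75th percentile of detected probes Slc7a1 was, which gave 8 lower members. At a 2-fold threshold 4 members were higher and 4 lower, against 2.62% and 4.17% of all genes. With normexp 7 members were higher and 6 lower, while the shares of all genes fell to 3.85% and 4.07%. The offset of 50 units in that setting shrinks the fold changes of dim probes most. Members and all genes were not matched for signal, so these figures cannot be set against each other. Without a filter the shares of all genes were 14.1% and 10.7%. The median over the members lay between −0.0025 and 0.084, and its sign is not settled. Of 288 member values recomputed, 279 moved by less than the scanner software's error. Many of these could hardly have moved further. Scaling on the median or on the 75th percentile of detected probes, and keeping flagged spots, shifted all members alike by a small amount. The median over probes left the 24 members with 1 probe unchanged, so this count does not measure stability. No paired analysis was possible because each diet has 1 array. Among members under 1.5-fold, Slc36a4 turned from −0.28 to 0.0083 with normexp. Normexp moved 6 members by more than the scanner software's error, which besides Vldlr and Slc36a4 were Slc6a9 (1.24 to 0.76), Slc7a8 (−1.79 to −1.36), Cebpg (−1.51 to −1.23) and Atf3 (−1.32 to −1.10).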
